A study of Kluyveromyces lactis with 6 samples.

Results

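The genes described are 9 neighbours near the right end of chromosome E of the budding yeast *Kluyveromyces lactis*, from KLLA0E24861g to KLLA0E25147g, out of 5076 genes measured. They were taken as the listed run of neighbouring genes that were all higher in cells without *SIR2* than in wild-type cells, so they were chosen by their FPKM in sir2Δ against WT, and that difference is given for them without a test. The run fills positions 10 to 2 from the right end among the annotated genes, with no other annotated gene between its members and 1 gene, KLLA0E25180g, beyond it. None of the 9 carries a gene symbol in the RefSeq table, and no role is given to them here.

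RNA-seq was done on 6 libraries from 3 strains grown at 30 °C in rich medium with 2% glucose to early log phase. The strains were a wild type (LRY2835, genotype MATa SIR2 hmr_delta hml_delta) and 2 isolates of a *SIR2* deletion (LRY2849, isolate 1, and LRY2850, isolate 2, both MATa sir2_delta hmr_delta hml_delta). All 3 strains therefore lack the silent mating cassettes *HML* and *HMR*, controls included. By the series' design, each strain gave a pair of technical replicates, so WT is 1 culture as far as the labels go, and strain, culture and genotype cannot be told apart in any difference from it.

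Sir2 is a histone deacetylase that uses NAD+ and takes part in silent chromatin. In *Saccharomyces cerevisiae* it removes acetyl groups from histone tails together with the other Sir proteins, at the silent mating cassettes and next to telomeres, and genes placed near a chromosome end can be held at a low level there. Deleting the gene removes the enzyme, and a comparison with wild type asks which genes change in level when it is absent. Levels are in FPKM as deposited (fragments per kilobase of gene, scaled per library), so genes of unlike length can be set side by side. How the libraries were scaled to each other is not given. Differences are on the log2(FPKM + 1) scale, which understates the change of genes near 0.

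KLLA0F14663g, which is *SIR2* by general knowledge although the table gives it no symbol, stood at 66.9 and 64.9 FPKM in the 2 WT libraries and at 0.0503 to 0.108 FPKM in the 4 sir2Δ libraries. *HMLALPHA1* and *HMLALPHA2* were listed at 0 in every library, as the deletion of *HML* would give. The other mating-type genes looked for, *MATA1*, *MATA2*, *HMLALPHA3*, *MATALPHA1* and *MATALPHA2*, were not found by symbol. Expression of the MATa genes could therefore not be checked. The sum of FPKM over all genes ran from 1542502 to 1803539 per library. Read numbers are not given in the files and could not be recovered from the values, so the depth is unknown and no counting interval can be given.

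All 9 genes were above WT in every sir2Δ library, and the run spanned a very wide range of levels. Over the strain means, the 9 genes had a median difference of 1.87 between sir2Δ and WT, from 0.81 to 2.94, against a median of −0.06 over all 5021 genes that were tested because their mean reached 1 FPKM. The genes were listed because they are higher in sir2Δ, so their calls in this contrast carry no information about them; 20.2% of all tested genes were called higher in it (limma, adjusted p under 0.05), and in 34% every sir2Δ library was above both WT libraries. As ratios of mean FPKM, 8 of the 9 genes were at least 2-fold over WT in both isolates and 4 were at least 4-fold over it.

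**Figure D1:**
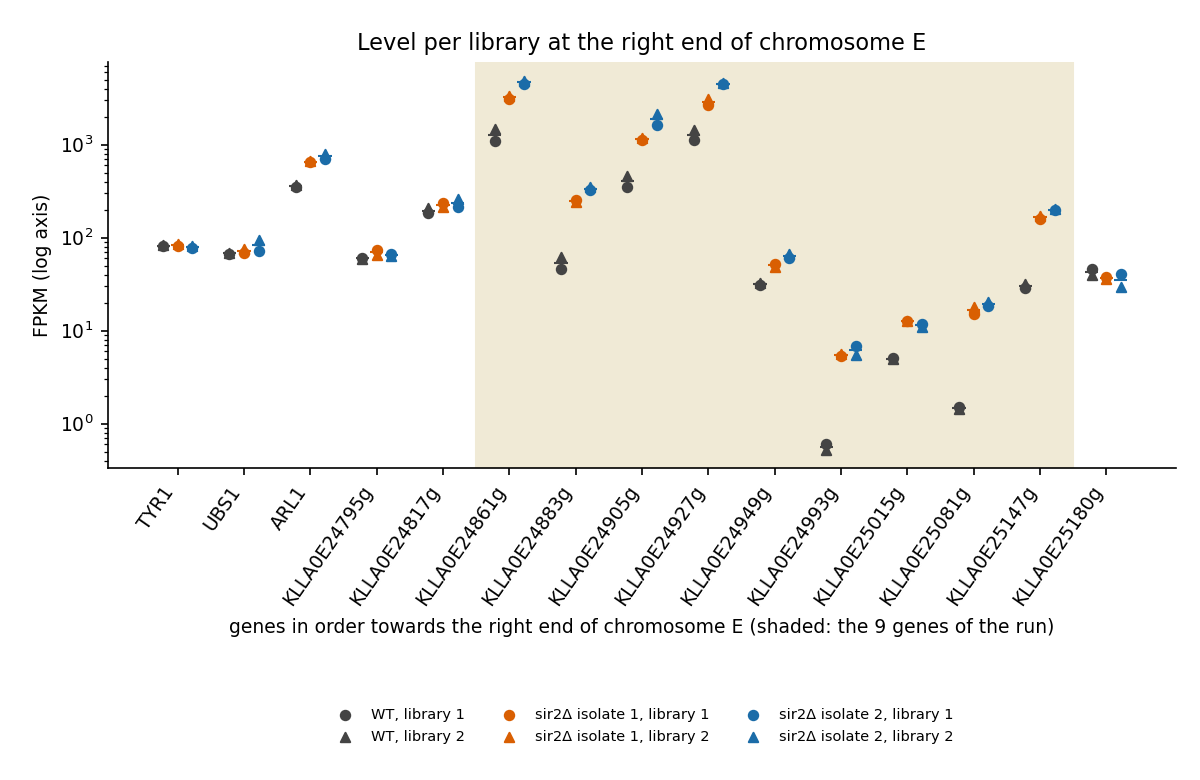
FPKM (log axis) in each of the 6 libraries for the 5 genes before the run, the 9 genes of the run (shaded) and the 1 gene after it, in order towards the right end of chromosome E; short lines mark strain means. Every sir2Δ library lies above both WT libraries within the shaded run, from 0.527 FPKM in WT at KLLA0E24993g to 4855 FPKM in isolate 2 at KLLA0E24861g, while KLLA0E25180g at the end lies between 29.8 and 45.9 FPKM.

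The innermost gene, KLLA0E24861g, was the most abundant of the run. It had 1098 and 1466 FPKM in WT, 3088 and 3364 FPKM in isolate 1, and 4473 and 4855 FPKM in isolate 2. The 3 strains did not overlap, and the mean FPKM was 2.52 times WT in isolate 1 and 3.64 times WT in isolate 2. In WT 96.1% of all genes had a lower mean level than it, so it was an abundant transcript while *SIR2* was present.

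KLLA0E24883g, the next gene outward, was far less abundant in WT. Its WT libraries had 45.7 and 61.5 FPKM, those of isolate 1 had 252 and 245 FPKM, and those of isolate 2 had 323 and 352 FPKM. Isolate 1 was thus at 4.63 times and isolate 2 at 6.29 times the WT mean. The gene moved from the middle of the level ranking, with 47.2% of genes below it in WT, to 84.3% below it in isolate 1 and 87.3% in isolate 2.

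KLLA0E24905g had 348 and 462 FPKM in WT, 1112 and 1183 FPKM in isolate 1, and 1644 and 2119 FPKM in isolate 2. Its order of strains was that of the 2 genes before it, with isolate 2 highest and no overlap. The ratios to WT were 2.83 and 4.65.

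KLLA0E24927g was nearly as abundant as KLLA0E24861g. It had 1117 and 1426 FPKM in WT, 2677 and 3134 FPKM in isolate 1, and 4459 and 4571 FPKM in isolate 2. The library ranges of these 2 genes overlapped within each of the 3 strains, so their order of level is not resolved. Both had a WT mean above 1000 FPKM, as did 236 tested genes in all.

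KLLA0E24949g showed the smallest difference of the run, 0.81 on the log2 scale. It had 31.2 and 32.4 FPKM in WT, 51.9 and 48.7 FPKM in isolate 1, and 60.0 and 66.3 FPKM in isolate 2. The isolates were at 1.58 and 1.99 times the WT mean, and it was the 1 member under 2-fold in both.

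KLLA0E24993g was the least abundant member in every strain. It had 0.607 and 0.527 FPKM in WT, 5.31 and 5.61 FPKM in isolate 1, and 6.80 and 5.54 FPKM in isolate 2. The isolates overlapped each other and lay well above WT, at 9.63 and 10.9 times its mean, but it stayed low in the ranking, with 1.32% of genes below it in WT, 1.89% in isolate 1 and 2.66% in isolate 2. With a WT level under the pseudocount, its log2 difference was 2.12 as analysed, 3.14 with a pseudocount of 0.1 and 0.58 with a pseudocount of 10.

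KLLA0E25015g had 5.04 and 4.96 FPKM in WT, 12.6 and 12.7 FPKM in isolate 1, and 11.8 and 11.1 FPKM in isolate 2. It was the 1 gene of the run whose isolate 2 libraries were both below those of isolate 1. Its ratios to WT were 2.53 and 2.29, and its log2 difference was 1.12 as analysed, 1.25 with a pseudocount of 0.1 and 0.55 with a pseudocount of 10.

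KLLA0E25081g showed the largest difference of the run, 2.94 on the log2 scale. It had 1.52 and 1.43 FPKM in WT, 15.3 and 18.0 FPKM in isolate 1, and 18.7 and 20.3 FPKM in isolate 2. The isolates were at 11.3 and 13.2 times the WT mean and did not overlap each other. The log2 difference was 3.52 with a pseudocount of 0.1 and 1.29 with a pseudocount of 10.

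KLLA0E25147g, the outermost member, had 28.6 and 31.4 FPKM in WT, 157 and 172 FPKM in isolate 1, and 198 and 202 FPKM in isolate 2. In WT its library range overlapped that of KLLA0E24949g, while in both isolates it was well above that gene. Likewise KLLA0E25081g was below KLLA0E25015g in WT and above it in both isolates, without overlap. The ratios to WT were 5.50 and 6.68.

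The level in WT tended to fall towards the chromosome end, while the difference from WT followed the order less closely. Over the 9 genes, Spearman's rho was −0.78 between order towards the end and mean WT FPKM, 0.32 between that order and the log2 difference from WT, and −0.35 between WT FPKM and that difference. These are descriptions over 9 neighbouring genes measured in the same libraries. The ratio of the highest to the lowest member mean was 2261 in WT, 591 in isolate 1 and 756 in isolate 2. The lowest was KLLA0E24993g in each strain, with a WT mean of 0.567 FPKM. The next lowest in WT, KLLA0E25081g, had a mean of 1.47 FPKM there, against 16.6 FPKM in isolate 1 and 19.5 FPKM in isolate 2. Each ratio uses the highest and lowest gene alone and does not describe the spread of all 9.

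Summed, the 9 genes made up 0.166% and 0.216% of all FPKM in the WT libraries, 0.478% and 0.513% in isolate 1, and 0.671% and 0.677% in isolate 2. The mean sum was 2.52 times WT in isolate 1 and 3.80 times WT in isolate 2. KLLA0E24861g, KLLA0E24905g and KLLA0E24927g held between 93.3% and 96.2% of the sum in each library, so the sum says little about the other 6 genes.

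**Figure D2:**
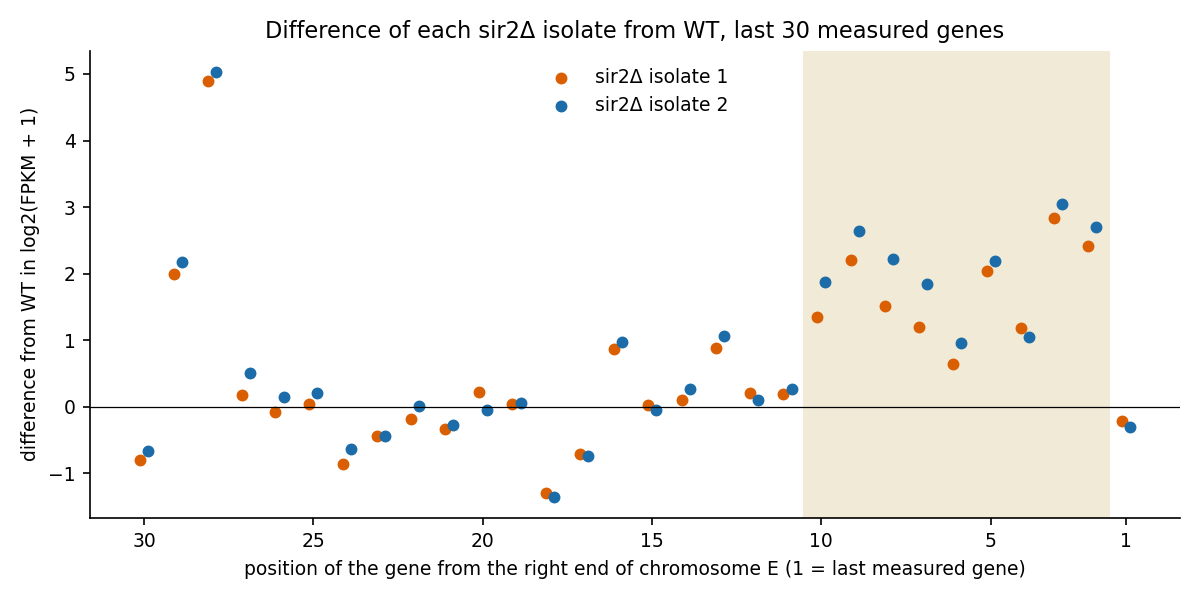
Difference of each sir2Δ isolate from WT in log2(FPKM + 1) for the last 30 measured genes of the right arm of chromosome E, with the 9 genes of the run shaded and position 1 at the chromosome end. In the run all points lie between 0.65 and 3.05, the last gene lies at −0.21 and −0.30, and the pair at positions 29 and 28 stands out among the inner genes.

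The genes directly beside the run on both sides differed less from WT than its members did. The run was listed as neighbouring raised genes, so its edges follow from that choice and are no separate result. KLLA0E25180g, the last annotated gene, had 45.9 and 39.8 FPKM in WT, 38.2 and 35.5 FPKM in isolate 1, and 40.3 and 29.8 FPKM in isolate 2, a log2 difference of −0.25. On the inner side KLLA0E24817g had 184 and 207 FPKM in WT and 213 to 262 FPKM in sir2Δ, a difference of 0.24, and KLLA0E24795g differed by 0.16. The member nearest to these values was KLLA0E24949g at 0.81.

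Further inward, *ARL1* at position 13, whose *S. cerevisiae* product is a small GTPase of Golgi traffic, was higher in sir2Δ, with 348 and 366 FPKM in WT and 646 to 799 FPKM in the isolates (log2 difference 0.97, limma adjusted p = 0.0021). *TYR1*, of tyrosine synthesis, and *UBS1* differed by −0.01 and 0.19 and did not pass (limma adjusted p = 0.97 and 0.374). Of the 21 genes among the last 30 that are not members, 4 were called higher and 5 lower, and their median difference was 0.04. Over all tested genes, 20.2% were called higher and 19.9% lower. Besides *ARL1*, the higher ones were *DAL3*, of allantoin breakdown (0.93), and the neighbours KLLA0E24421g and KLLA0E24443g (2.09 and 4.96), named after their values were seen. Both rises and falls were thus found among the last 30 genes outside the run.

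The isolates carry the same deletion, and the difference between them was not used to choose the run, so it was tested. Isolate 2 was higher than isolate 1 for 6 of the 9 genes and lower for 0 (limma over 6 libraries, adjusted p under 0.05; 6 and 0 also at an unadjusted p under 0.05), where 7.89% of tested genes were called higher and 10.8% lower. The median difference was 0.32 over the members and 0.01 over all tested genes. In 7 of the 9 genes both isolate 2 libraries were above both isolate 1 libraries, as in 27.5% of tested genes, and in 1 both were below, as in 26.1%. Technical spread alone stands behind these p-values, and neighbouring genes in the same libraries are not independent of each other.

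KLLA0E24905g showed the largest such difference, 0.70 (SE 0.13, limma adjusted p = 0.00277). KLLA0E24927g followed with 0.64 (SE 0.12, limma adjusted p = 0.00221), then KLLA0E24861g with 0.53 (adjusted p = 0.00824) and KLLA0E24883g with 0.44 (adjusted p = 0.0184). These 4 are the inner genes of the run and stand next to each other. KLLA0E24949g (0.32, limma adjusted p = 0.0241) and KLLA0E25147g (0.28, adjusted p = 0.0438) passed as well.

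The other 3 did not pass. KLLA0E25081g differed by 0.22 (95% interval −0.04 to 0.48), KLLA0E24993g by 0.15 (−0.19 to 0.48) and KLLA0E25015g by −0.13 (−0.38 to 0.11). Spearman's rho between mean WT FPKM and the isolate difference was 0.88 over the 9 genes, again a description. Among 436 tested genes averaging 500 FPKM or more, 3 of them members, the median isolate difference was 0.11 and 20.6% were called higher in isolate 2. Whether level has a part in the members' difference was not tested.

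**Figure D3:**
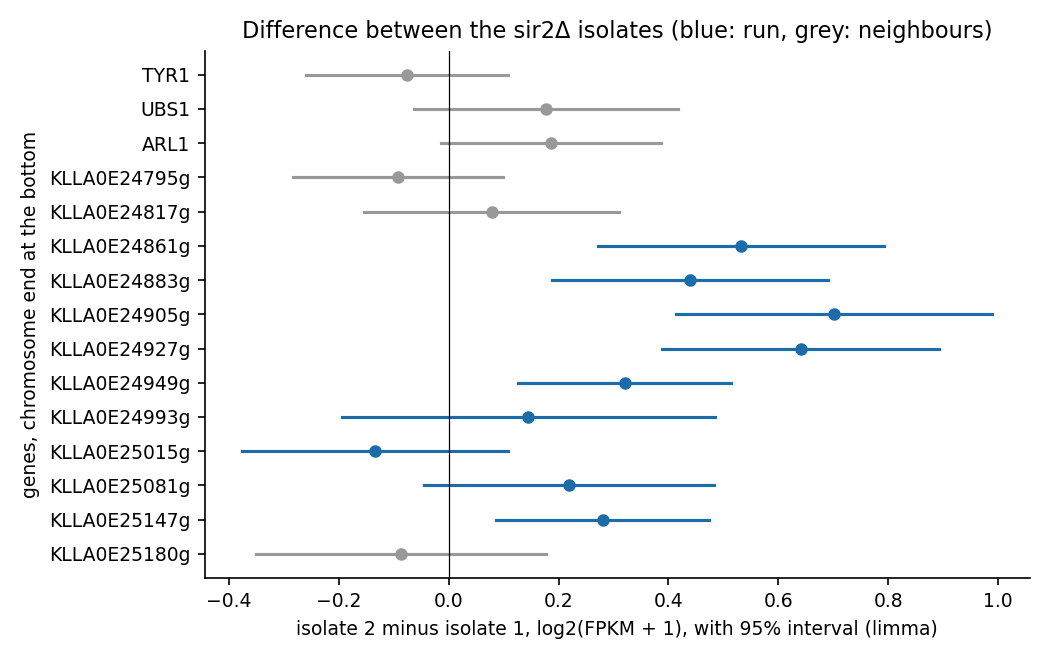
Isolate 2 minus isolate 1 in log2(FPKM + 1) with 95% intervals from limma, for the 9 genes of the run (blue) and the 6 neighbouring genes (grey), ordered with the chromosome end at the bottom. The 4 inner genes of the run lie between 0.44 and 0.70, and the intervals of all 6 neighbours include 0.

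These calls depend on single libraries. Without isolate 1 replicate 1, or without isolate 2 replicate 2, 0 of the 9 genes were called higher by limma, with 6 and 5 at an unadjusted p under 0.05, and without isolate 2 replicate 1 the count was 3. Calls over all tested genes fell as well, from 396 higher to 119, 71 and 259 in the same order. The differences of the 4 inner genes stayed between 0.38 and 0.88 in every fit that left out 1 library. Leaving out a library of an isolate leaves that strain with 1, which is then assumed to vary like the others. With the filter on low values removed, 2 of the 9 were called.

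The same 4 inner genes also differed between the WT libraries, which are technical replicates of 1 strain. WT library 2 exceeded library 1 by 0.42 for KLLA0E24861g, 0.42 for KLLA0E24883g, 0.41 for KLLA0E24905g and 0.35 for KLLA0E24927g, where the SD of this difference over tested genes was 0.11. A difference of 0.35 or more in that direction was found in 36 tested genes, 0.717% of them. That cut-off is the smallest of the 4 differences, set after they were seen, so these 4 neighbours are among the 36 by construction. Among the 436 genes averaging 500 FPKM or more it was found in 3. These are the 3 members of that level, which the cut-off includes by construction, and no other gene of that level reached it. The 5 outer genes of the run differed by −0.07 to 0.13.

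**Figure D4:**
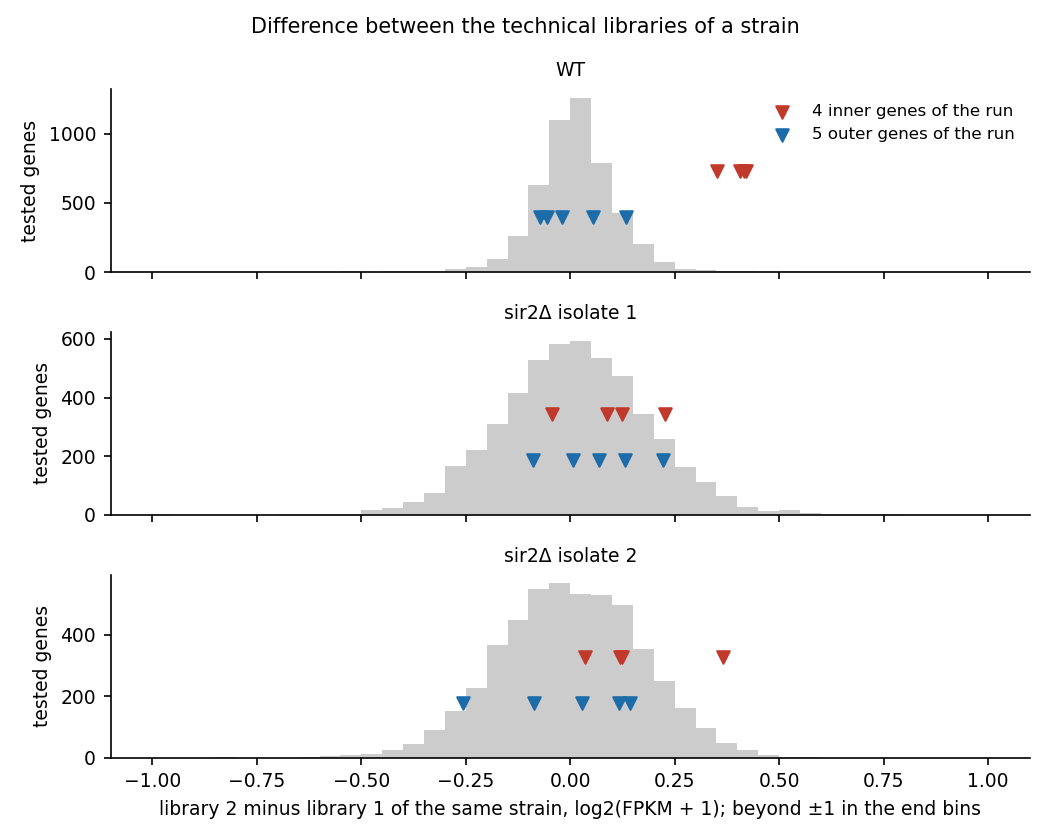
Number of tested genes by the difference between the 2 libraries of each strain in log2(FPKM + 1), with the 4 inner genes of the run marked in red and the 5 outer genes in blue. In WT the red marks lie at 0.35 to 0.42, outside the bulk of genes, and in the isolates the marks lie between −0.26 and 0.37.

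In isolate 1 the inner 4 differed between libraries by −0.04 to 0.23, and in isolate 2 by 0.04 to 0.37, the latter value being KLLA0E24905g. The SD over tested genes was 0.18 in isolate 1 and 0.17 in isolate 2. Differences between isolates of 0.44 to 0.70 in these 4 genes thus stand beside a difference of 0.35 to 0.42 between WT libraries of the same strain. The part of such library differences in the isolate result was not tested. The WT library differences are small next to the difference from WT: with either WT library left out, KLLA0E24861g was at 1.40 to 1.82, KLLA0E24883g at 2.21 to 2.64, KLLA0E24905g at 1.66 to 2.07 and KLLA0E24927g at 1.34 to 1.69.

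Other chromosome ends give the frame for this one. Leaving out the right arms of E and B, whose runs were picked for being raised, 65 of the last 10 genes of the other 10 arms were tested, of which 28 (43.1%) were called higher and 7 lower by limma, beside 20.2% and 19.9% of all tested genes. Genes near 0 in WT entered the test only through higher sir2Δ values, so these shares depend on the filter. Medians per arm ran from −0.00422 to 4.52, the highest resting on 1 tested gene. The run at the right end of chromosome B, 10 tested genes chosen in the same manner, had a median difference of 1.70, from 0.47 to 4.33. Its WT means lay between 0.672 and 296 FPKM, so it held no gene as abundant in WT as KLLA0E24905g, KLLA0E24861g or KLLA0E24927g. In that run isolate 2 was called higher than isolate 1 for 5 of 10 genes and lower for 0, with a median difference of 0.25. Between the isolates 7.89% of all tested genes were called higher and 10.8% lower, and such calls depended on single libraries. No test of a difference between the runs was made.

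The genes whose levels over the 6 libraries lay closest to the median profile of the run were on other chromosomes or far inside. By Euclidean distance in log2(FPKM + 1), they were *SPS19* (0.30), which encodes a peroxisomal enzyme of fatty acid breakdown in *S. cerevisiae*, KLLA0F09427g (0.43), *ESBP6* (0.56), *YEA4* (0.60) and KLLA0B09658g (0.62). Among members, KLLA0E25147g was closest to that profile (0.13) and KLLA0E24861g farthest (11.6), so the median profile stands for few of them. *SPS19* went from 34.1 and 33.2 FPKM in WT to 186 to 200 FPKM in sir2Δ.

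Of 62 tested genes for silencing factors, histone modifiers, histones and telomere proteins, matched by symbol, 7 were higher and 14 lower in sir2Δ, and 41 did not pass (limma; background 20.2% higher and 19.9% lower). Their median difference was −0.23, against −0.06 for all tested genes. The highest was *NPT1*, nicotinate phosphoribosyltransferase of NAD+ salvage, at 3.08 (limma adjusted p = 2.73e-06). The histone H3 gene *HHT1*, whose reads near-identical copies can share, followed at 0.84 (limma adjusted p = 0.00936). Its libraries had 2638 and 3483 FPKM in isolate 1 and 2991 and 4606 FPKM in isolate 2. *HHT2*, also of the list and named after its value was seen, differed by 0.15 and did not pass (limma adjusted p = 0.485). The lowest were the histone chaperone gene *ASF1*, which fell by 1.52, and *TBF1*, whose *S. cerevisiae* product binds repeats near telomeres, which fell by 1.22. *TBF1* had 43.6 and 46.6 FPKM in WT and 17.5 to 21.0 FPKM in the isolates. Any part of these genes in the levels of the run was not tested.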

How the data were processed

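The authors deposited 1 FPKM value per gene and library, 6 libraries with 5076 genes each. TopHat2 2.0.10 and Cuffnorm 2.2.1 are named in the submitters' processing notes. Genome build, annotation and scaling option: not given in the sources used here. Libraries came from total RNA (hot phenol, DNase) by the non-stranded TruSeq kit, read as 50 bp single ends, per the labels' protocols. Reads of overlapping or antisense genes cannot be separated, and near-identical copies can share reads. Sequences were not used here, so such sharing among the 9 genes was not checked.

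Symbols and gene order, and nothing else, came from the RefSeq table of assembly ASM251v1, in which each of the 5076 identifiers was found. Values were analysed as log2(FPKM + 1) for 5021 genes, those whose strain means averaged 1 FPKM or more. For sir2Δ against WT, technical libraries were averaged and 2 isolates were compared with 1 WT strain in limma 3.58.1 (R 4.3.3, intensity trend, 1 residual and 7 prior degrees of freedom). WT was assumed to vary like the isolates. Isolate 2 against isolate 1 used the 6 libraries in 3 strain groups (3 residual degrees of freedom). Tests were two-sided with Benjamini-Hochberg adjustment over all tested genes and a threshold of 0.05. They were also run on simulated data in which WT was made to vary like the isolates. The isolate contrast was simulated with technical spread only. Those runs therefore do not check these assumptions. Figures were drawn with matplotlib 3.10.9.

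Named are the 9 members, *SIR2*, the 5 genes inside and the 1 gene beyond the run, the 2 highest and 2 lowest genes of the silencing list, and the 5 nearest genes by profile; others are marked. Members and lists were chosen with earlier results of these data known. Alternatives were other pseudocounts, filters and scalings, no trend, libraries entered singly, the replicate number as a block, and leaving out each library.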

Additional observations from a re-analysis of the deposited data

Results flagged for a closer look

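For 6 of the 9 genes the change from WT differed between the isolates by the test of isolate 2 against isolate 1 (limma, adjusted p under 0.05). The differences were 0.53 for KLLA0E24861g, 0.44 for KLLA0E24883g, 0.70 for KLLA0E24905g, 0.64 for KLLA0E24927g, 0.32 for KLLA0E24949g and 0.28 for KLLA0E25147g, with both isolate 2 libraries above both isolate 1 libraries in each. The WT libraries are shared by both changes. Over all tested genes 7.89% were called higher in isolate 2 and 10.8% lower. In 27.5% of them both isolate 2 libraries were above both isolate 1 libraries. The calls depend on single libraries, and their p-values measure technical spread only.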

How the results depend on the processing

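The sir2Δ against WT difference was positive for each tested member under every alternative run. The number called higher was 9 except for 8 with no filter, 7 after quantile normalization, and 7 at a mean of at least 10 FPKM, where 2 members were not tested; since this contrast chose the members, these counts are no support for their direction. Their median of 1.87 became 1.51 with a pseudocount of 10 and 1.49 after quantile normalization. Leaving out 1 library gave 1.66 to 2.07. Over all tested genes, 1000 lower calls became 642 with no filter, 1740 with the 6 libraries entered singly and 1675 with the replicate block. In the silencing list, 7 higher and 14 lower became 4 and 7 with no filter, and the 14 lower became 27 with libraries entered singly and 24 with the replicate block.

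Between the isolates, the members' median of 0.32 became 0.44 at a mean of at least 10 FPKM, with fewer members tested. The 6 higher members became 2 with no filter and 0 to 5 without 1 library. The cause was not tested. All tested genes gave 396 higher and 541 lower calls, 259 higher with no filter, and 71 to 461 higher and 161 to 465 lower without 1 library. KLLA0E25015g turned from −0.13 to 0.0802 after quantile normalization, and the cause was not tested. That setting called 5 members higher, and not the same ones. KLLA0E24993g then passed (0.50, limma adjusted p = 0.0473). KLLA0E24883g and KLLA0E25147g no longer did (limma adjusted p = 0.0629 and 0.0993). The replicate numbers are not said to mark a shared batch. Differences between libraries 2 and 1 correlated across genes at 0.01, 0.05 and 0.21 between strains. With the replicate block the isolate calls were 6 members higher and 0 lower, with adjusted p from 3.79e-07 to 0.0199.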
